A study of Mus musculus with 12 samples.

Results

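Acetylation of histone H3 at lysines 9 and 14 (H3K9/14ac) in fibro-adipogenic progenitors (FAPs) of old mdx mice treated with trichostatin A (TSA) was set against that in FAPs of young mdx mice given vehicle. The question is how near old TSA-treated cells lie to the young untreated state, with age and treatment both differing between the libraries. Members of the comparison are the deposited peaks on chromosome 1 and on chromosome 2 up to position 167064301, the stretch that both lists cover as used here. They number 2475 peaks for old TSA and 2711 for young vehicle, 5186 of the 77135 complete peaks read from the 8 lists of the series. Old mice were 12 months and young mice 1.5 months of age. All were C57Bl6 mdx animals, a dystrophin-deficient strain used as a model of Duchenne muscular dystrophy, so the young vehicle library is itself dystrophic and no healthy muscle is compared here. TSA was injected into the peritoneum at 0.6 mg/kg every day for 15 days, and vehicle was saline. Cells were sorted from muscle by flow cytometry, and the sources used here do not give the gate. The series holds 12 samples, 8 of them immunoprecipitated, and each combination of mark, age and treatment has 1 library. The values below therefore compare single libraries, and no difference between them has a replicate check.

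FAPs are mesenchymal cells that lie between muscle fibres. They support muscle stem cells after injury, and in chronic damage they can turn into matrix-producing fibroblasts or adipocytes, which makes them a source of fibrosis and fat in dystrophic muscle. Acetylation of lysines on the tail of histone H3 weakens its hold on DNA and recruits reader proteins, and H3K9/14ac typically sits around the start sites of active genes. TSA blocks class I and class II histone deacetylases, the enzymes that remove this mark. ChIP-seq counts the sequenced fragments, here called tags, that an antibody to the mark pulls down.

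The 250 bases before 8 start sites are shown first, to give CG-rich and CG-poor examples, since the start sites that the peaks of each library covered differed as classes in their content of CG dinucleotides. They are RefSeq sequences of build GRCm38.p6, written 5′ to 3′ on the strand of the gene, with each CG in capitals. The first 5 lie at regions with more tags or a peak only in old TSA, and the last 3 at regions with more tags in young vehicle. Src encodes a tyrosine kinase, Ebf4 a transcription factor of the early B-cell factor family, Rtn4rl2 a receptor of the Nogo receptor family, Gsn the actin-severing protein gelsolin and Nr6a1 an orphan nuclear receptor. Rgs16 encodes a regulator of G-protein signalling, Pla2g4a the cytosolic phospholipase A2 that releases arachidonic acid, and Dpt the matrix protein dermatopontin. The promoter of Src holds 40 CG, that of Ebf4 31, that of Rtn4rl2 29, that of Gsn 12 and that of Nr6a1 4. Those of Rgs16, Pla2g4a and Dpt hold 17, 3 and 3.
Src (chr2:157424043-157424292, plus strand): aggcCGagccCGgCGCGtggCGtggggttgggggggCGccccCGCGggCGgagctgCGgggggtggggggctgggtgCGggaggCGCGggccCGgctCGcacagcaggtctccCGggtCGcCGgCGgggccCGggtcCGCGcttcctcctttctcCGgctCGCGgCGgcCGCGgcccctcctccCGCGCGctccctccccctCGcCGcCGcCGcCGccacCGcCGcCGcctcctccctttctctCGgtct
Ebf4 (chr2:130295689-130295938, plus strand): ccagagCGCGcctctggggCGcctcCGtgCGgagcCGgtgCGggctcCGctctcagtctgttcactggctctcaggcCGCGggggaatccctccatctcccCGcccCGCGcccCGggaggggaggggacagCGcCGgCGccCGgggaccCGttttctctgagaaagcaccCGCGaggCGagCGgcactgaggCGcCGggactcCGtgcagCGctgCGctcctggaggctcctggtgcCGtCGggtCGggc
Rtn4rl2 (chr2:84886693-84886942, minus strand): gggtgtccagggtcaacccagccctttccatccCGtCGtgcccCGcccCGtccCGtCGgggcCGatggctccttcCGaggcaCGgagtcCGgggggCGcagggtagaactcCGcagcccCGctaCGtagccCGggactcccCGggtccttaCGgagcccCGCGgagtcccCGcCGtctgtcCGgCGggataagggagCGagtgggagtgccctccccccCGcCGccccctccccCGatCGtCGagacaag
Gsn (chr2:35282130-35282379, plus strand): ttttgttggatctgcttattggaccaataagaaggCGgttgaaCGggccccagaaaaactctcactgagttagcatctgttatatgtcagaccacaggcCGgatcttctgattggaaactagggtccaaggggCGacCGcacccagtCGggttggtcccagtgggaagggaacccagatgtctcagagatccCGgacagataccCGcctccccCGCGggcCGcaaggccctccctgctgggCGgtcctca
Nr6a1 (chr2:38926462-38926711, minus strand): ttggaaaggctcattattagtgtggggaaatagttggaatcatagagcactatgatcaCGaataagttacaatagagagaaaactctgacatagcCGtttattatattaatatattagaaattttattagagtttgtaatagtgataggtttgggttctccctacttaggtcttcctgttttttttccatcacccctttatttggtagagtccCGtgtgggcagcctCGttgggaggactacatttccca
Rgs16 (chr1:153740103-153740352, plus strand): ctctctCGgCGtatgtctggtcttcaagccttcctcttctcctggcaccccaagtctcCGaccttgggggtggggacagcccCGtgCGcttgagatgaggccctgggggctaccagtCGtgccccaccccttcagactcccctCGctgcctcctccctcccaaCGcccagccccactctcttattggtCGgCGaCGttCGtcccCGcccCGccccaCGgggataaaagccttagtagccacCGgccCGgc
Pla2g4a (chr1:149961291-149961540, minus strand): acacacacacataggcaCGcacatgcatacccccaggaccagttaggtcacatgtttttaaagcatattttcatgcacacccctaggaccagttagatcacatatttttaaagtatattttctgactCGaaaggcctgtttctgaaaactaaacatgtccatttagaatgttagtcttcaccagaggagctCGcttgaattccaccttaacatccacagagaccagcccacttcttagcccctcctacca
Dpt (chr1:164796413-164796662, plus strand): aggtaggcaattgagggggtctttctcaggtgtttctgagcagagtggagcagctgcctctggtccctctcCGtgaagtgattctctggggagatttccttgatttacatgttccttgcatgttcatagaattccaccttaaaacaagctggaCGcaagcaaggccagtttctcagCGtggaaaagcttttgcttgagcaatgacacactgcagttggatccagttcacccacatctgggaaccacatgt

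The headers counted 19869 peaks for old TSA and 21478 for young vehicle over the whole genome, and between 12.5% and 12.8% of each of the 4 H3K9/14ac lists fell in the stretch. Peaks there held 426419 tags over 2.55 Mb in old TSA, against 452476 tags over 2.33 Mb in young vehicle. Old TSA peaks were wider, with a median of 910 bp against 730 bp, and carried 167 tags per kb against 194. The other lists of the mark were longer, with 3235 peaks for old vehicle and 3336 for young TSA, and had 251.5 and 227 tags per kb. Nothing in the peaks checks the age or the treatment written on a library.

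Most of the H3K9/14ac landscape was common to both libraries. Of the old TSA peaks, 2049 of 2475 overlapped a young vehicle peak by 1 bp or more, which is 82.8% (exact 95% binomial interval 81.2 to 84.3). Of the young vehicle peaks, 2331 of 2711 overlapped an old TSA peak, which is 86.0% (84.6 to 87.3). Joined where they overlapped, the peaks formed 1897 shared regions, 426 regions of old TSA only and 380 of young vehicle only. Together the peaks of both libraries shared 67.2% of the bases that either covered.

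Against the same young vehicle library, the share of covered bases in common was 60.3% for old vehicle and 60.8% for young TSA. For old TSA it was 60.6% with old vehicle and 62.3% with young TSA. Old TSA and young vehicle thus had the highest value of these 5 pairs, which reuse the same libraries. They also had the shortest lists, and the part of list length in these shares was not tested. The share of young vehicle peaks that were overlapped ran the other way, at 86.0% by old TSA, 87.1% by old vehicle and 87.9% by young TSA.

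In shared regions, tags were compared as the log2 ratio of old TSA over young vehicle minus its median over these regions, called the centred ratio. That median was -0.14, so the centring is small. Over young vehicle, the same median was 0.35 for old vehicle and 0.39 for young TSA. Tags given below for old vehicle and young TSA are not centred, so they run higher than centred ratios would. For old TSA over young vehicle, the interquartile range of the centred ratio was -0.22 to 0.30, and 95.2% of the 1897 were within 2-fold. Centred tags were at least 2-fold higher in old TSA in 79 regions, 4.16% of those compared, and at least 2-fold lower in 12, or 0.633%. The SD of the centred ratio over regions was 0.48, with a median counting error of 0.15. Tags were counted in each library's own peaks, so a wider peak holds more of them. Old TSA peaks were wider in 58.8% of shared regions, and tags per bp of peak had an SD of only 0.23, with 1 region at least 2-fold higher and 0 lower. The differences in tags below thus went mainly with differences in peak width. Both tags and width come from each library's own called peaks, so these values cannot separate a wider peak from stronger signal.

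**Figure D1:**
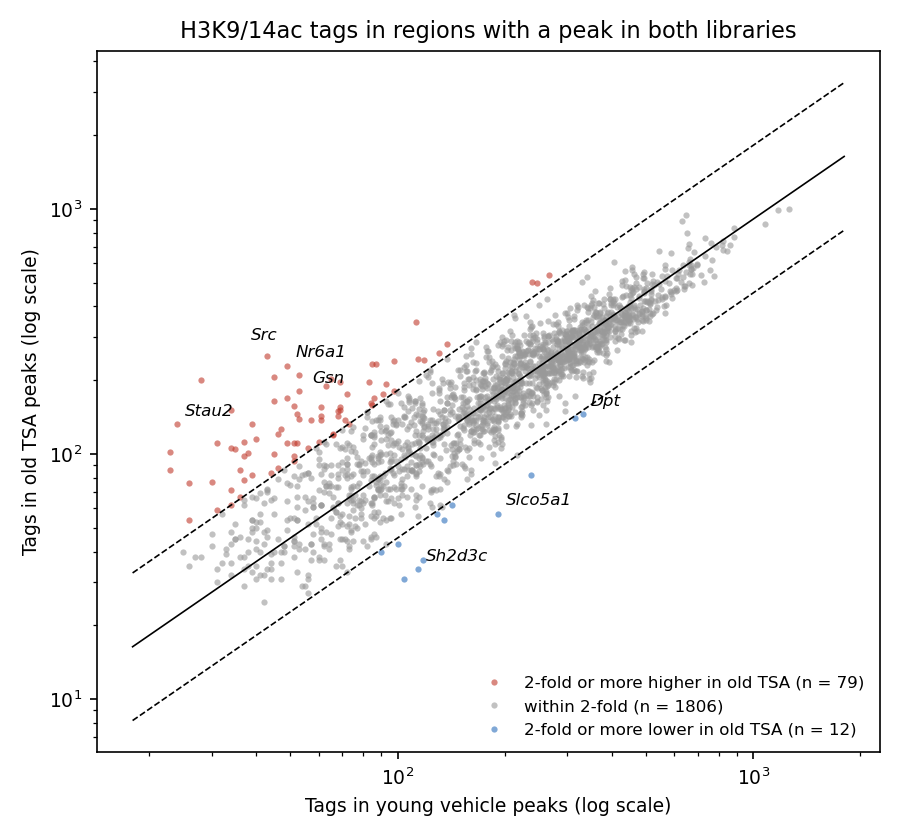
Each point is 1 of 1897 regions with a peak in both libraries, with tags in young vehicle peaks on the x axis and in old TSA peaks on the y axis, both log scales. The solid line marks a centred ratio of 0 and the dashed lines 2-fold either side. The 79 red regions above the upper line lie mostly at low tags, and the 12 blue regions fall below the lower line.

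The excess of higher over lower regions lay among weakly marked ones. When regions were ranked by summed tags and split evenly in 3, 62 of the 632 weakest were at least 2-fold higher and 9 lower, with a median of 0.12. Of the 633 regions in the middle, 14 were higher and 3 lower. The 632 strongest held 3 and 0, with a median of -0.05. Chromosome 2 had 51 higher and 3 lower of 1052 regions, and chromosome 1 had 28 and 9 of 845. Regions at gene ends, meaning within 1000 bp of either annotated end of a protein-coding gene, had 44 higher and 7 lower of 1386, with a median of -0.01.

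Among regions that touch a single protein-coding gene and hold at least 100 tags in all, the highest ratio was at Src. Its region (chr2:157423588-157425058) held 250 tags in old TSA, against 43 in young vehicle, over 1471 bp against 298 bp. The centred ratio was 2.68 ± 0.24 (counting error), or 6.40-fold. Only the old TSA peak reached the start site whose upstream sequence is shown above. Old vehicle held 163 tags there and young TSA 131, so young vehicle was the lowest of the 4 libraries.

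At Gsn, which FAPs express strongly, the region at an internal start site (chr2:35282311-35284351) held 210 tags in old TSA, against 53 in young vehicle. Its centred ratio was 2.12 ± 0.22, with 2002 bp against 360 bp under the peak. H3K27ac, acetylation at lysine 27 of the same histone that marks active promoters and enhancers, had 1155 tags in old TSA peaks over this region, against 122 in young vehicle, a centred ratio of 3.34. Both marks were thus higher there in old TSA. Old vehicle held 341 H3K9/14ac tags and young TSA 153.

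Nr6a1 held 229 tags in old TSA, against 49 in young vehicle (chr2:38925063-38926751; centred ratio 2.36 ± 0.23). Stau2, which encodes a double-stranded RNA-binding protein of RNA transport, held 132 tags against 24 (chr1:16518597-16519544; 2.60 ± 0.32). Ebf4 held 102 against 23 (chr2:130295373-130296101; 2.29 ± 0.33). In all 3 young vehicle was again the lowest of the 4 libraries. Zmynd8, which encodes a reader of acetylated histones, held 151 tags against 34 (chr2:165884744-165886199; 2.29 ± 0.27). The region at Lzts3 held 86 against 23, and that at Chst1, which encodes a carbohydrate sulfotransferase, 111 against 31. Over all peaks of the gene, the centred ratio was 0.12 at Lzts3, 1.14 at Src and 3.06 at Ebf4. Across these 8 highest regions, old vehicle held between 76 and 341 tags and young TSA between 61 and 278. Each of the 8 had more tags in both of these libraries than in young vehicle. The regions were chosen for few young vehicle tags relative to old TSA, which favours this order, so nothing is concluded from it.

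The 8 lowest regions were led by Casp8, the initiator caspase of death-receptor signalling, with 31 tags in old TSA against 104 in young vehicle (chr1:58802810-58803799; centred ratio -1.61 ± 0.30). Sh2d3c, which encodes an adaptor of integrin and receptor signalling, held 34 tags against 114 (chr2:32727687-32728591; -1.61 ± 0.28). H3K27ac over the Sh2d3c region had 166 tags in old TSA and 1147 in young vehicle, a centred ratio of -2.69. Both marks were lower there in old TSA.

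Slco5a1, a gene of the organic anion transporter family, held 57 tags in old TSA against 191 in young vehicle (chr1:12991425-12992861; -1.61 ± 0.22). Rgs16 held 37 against 118 (chr1:153740318-153741181; -1.54 ± 0.27), and Pla2g4a 62 against 142 (chr1:149960640-149961368; -1.06 ± 0.22). At Rgs16 and Pla2g4a only the young vehicle peak reached the start site. Dpt held 145 tags in 2 peaks in old TSA, against 331 tags in 1 peak in young vehicle (chr1:164796412-164798693; -1.05 ± 0.14). The region at Nckap5 held 54 against 135 tags and that at Zfp442 43 against 100. Over all peaks of the gene the centred ratio could differ from that of the region. It was 0.28 at Nckap5, -0.27 at Casp8, -0.81 at Sh2d3c and -2.14 at Rgs16. Old TSA had the fewest tags of the 4 libraries at all 8 regions, an order favoured by choosing them for few old TSA tags relative to young vehicle. After centring each library on young vehicle, young TSA was lower at Zfp442 (-1.42 against -1.08 for old TSA) and at Dpt (-1.11 against -1.05).

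**Figure D2:**
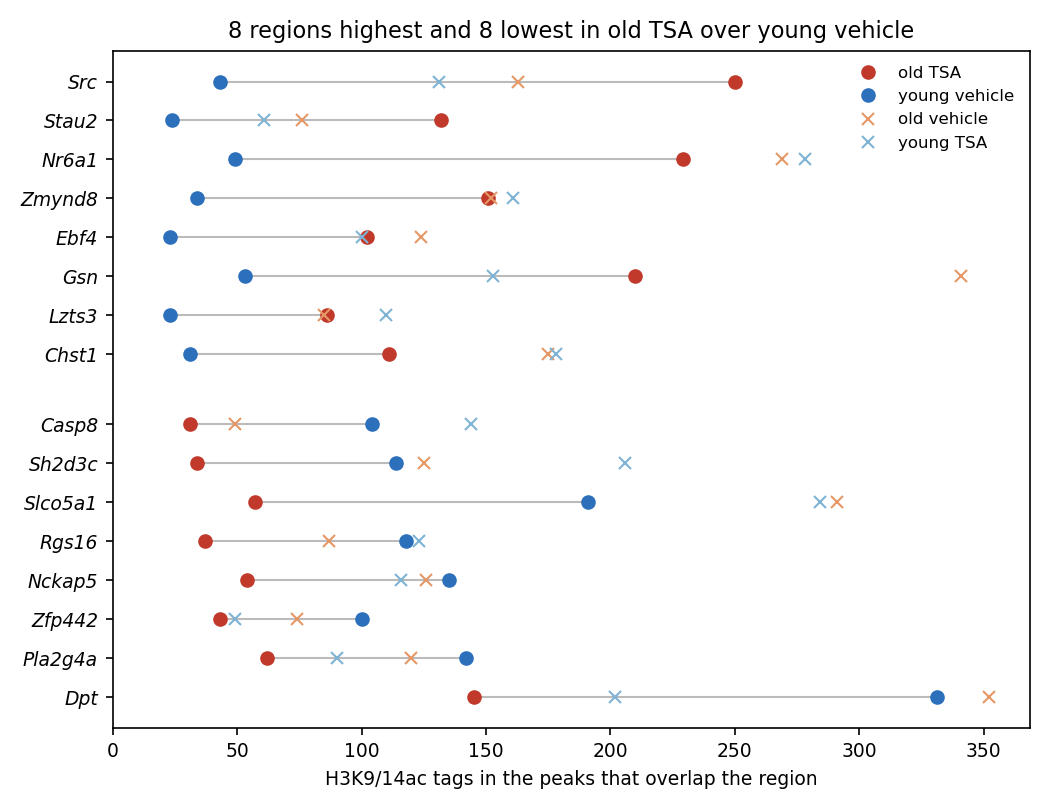
H3K9/14ac tags (x axis) in the 4 libraries at the 8 regions with the highest and the 8 with the lowest centred ratio, each named by its gene, with a grey line joining old TSA to young vehicle. Young vehicle has the fewest tags at the upper 8 and old TSA at the lower 8, before any centring, while Gsn is highest in old vehicle with 341 tags. Regions were chosen by the ratio of old TSA to young vehicle, which favours this order.

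Regions with a peak in a single library were small and mostly away from gene ends. Their median was 49 tags in old TSA only and 48 in young vehicle only, against 193, the mean of both libraries, in shared regions. Under 100 tags were 90.4% of the old TSA only regions and 95.3% of the young vehicle only regions. A gene end was touched by 34.7% (30.2 to 39.5) of old TSA only regions, by 24.7% (20.5 to 29.4) of young vehicle only regions and by 73.1% (71.0 to 75.0) of shared regions. With a gene end taken as 2500 bp either side, the shares were 46.0%, 43.2% and 78.4%, so the first 2 classes no longer stood apart. Start sites lay under 14.8%, 7.37% and 60.4%. A peak of the other library lay within 1000 bp of 33.3% of old TSA only regions and 43.2% of young vehicle only regions.

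**Figure D3:**
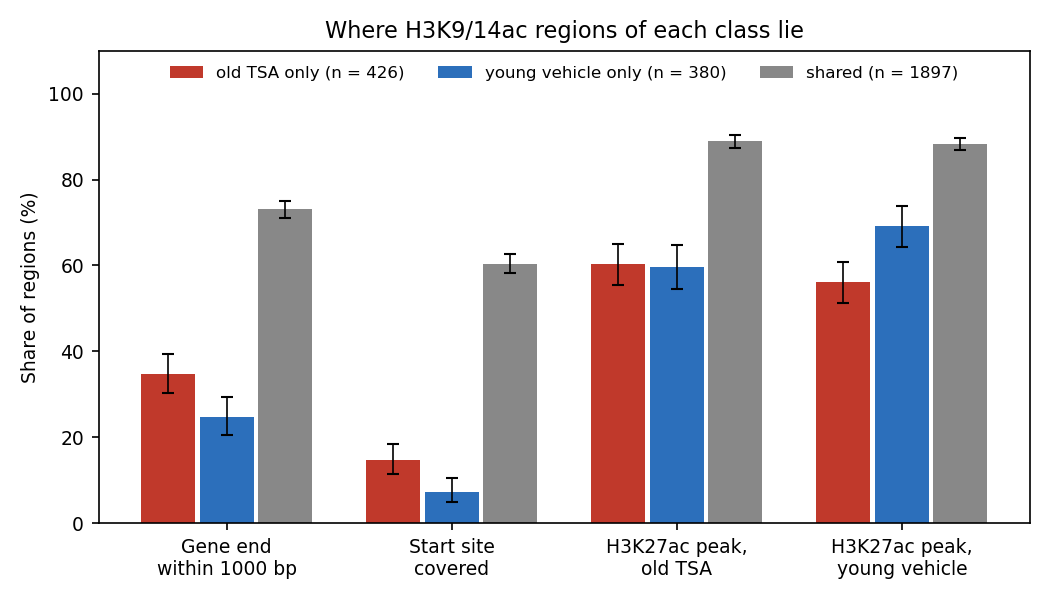
Bars give the share of regions (y axis, percent) of old TSA only, young vehicle only and shared regions that touch a gene end, cover a start site or overlap an H3K27ac peak of either condition, with exact 95% binomial intervals as error bars. Shared regions stand highest in every category, from 60.4% at start sites to 88.9% for H3K27ac of old TSA.

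The 6 most tagged old TSA only regions that touch a gene held between 160 and 190 tags. The first, at Madd and Nr1h3 (chr2:91182011-91183564), held 190 tags in old TSA and had no peak in young vehicle, with 205 tags in old vehicle and 149 in young TSA. Nr1h3 encodes the liver X receptor alpha, a sensor of oxysterols. At Cacnb4, a calcium channel subunit gene, the region (chr2:52675375-52676812) held 189 tags in old TSA, against 57 in old vehicle and 86 in young TSA. Rtn4rl2 held 160 tags in old TSA (chr2:84886225-84887796), with 83 in old vehicle and 50 in young TSA. The rest were at Ptpa, an activator of protein phosphatase 2A, with 188 tags, Tmcc2 with 169, and a further Zmynd8 region with 161. All 6 had a peak in both old vehicle and young TSA, though they were chosen for having none in young vehicle.

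The largest young vehicle only region lay at Aplnr, the gene of the apelin receptor, which endothelial cells carry. It held 413 tags over 3132 bp (chr2:85136716-85139847) in young vehicle and had no peak in old TSA, with 214 tags in old vehicle and 471 in young TSA. H3K27ac over it had 683 tags in old TSA and 1197 in young vehicle. At Hjurp, which encodes the chaperone of the centromeric histone, and its neighbour Mroh2a, young vehicle held 198 tags, old vehicle 499 and young TSA 401. A region inside Prrx1, the homeobox gene of limb mesenchyme, held 131 tags in young vehicle, 37 in old vehicle and no peak in old TSA or young TSA. The region at Hspa5, which encodes the chaperone BiP of the endoplasmic reticulum, held 128 tags and was absent from the other 3 lists. Tlr5, the flagellin receptor gene, held 130 tags and Mettl21a, a lysine methyltransferase gene, 124.

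H3K27ac gives a second readout of the same conditions from separate immunoprecipitations. Of the 79 regions that were 2-fold higher in H3K9/14ac, 43 had H3K27ac peaks in both libraries. Their median centred H3K27ac ratio was 0.52, with 30 higher and 13 lower in old TSA. Of the 12 that were 2-fold lower, 8 had such peaks, with a median of -0.90 and 2 higher and 6 lower. Over all shared regions the H3K27ac median was -0.03 in 1633 regions, 46.5% of them higher. In regions of old TSA only it was 0.14, with 138 higher and 87 lower, and in regions of young vehicle only -0.14, with 86 higher and 131 lower. H3K27ac thus leaned the same way as H3K9/14ac in each of these 4 classes. Both marks come from cells of the same labelled condition, so they are not replicates of it.

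Genes were compared by the tags of all peaks that touch a protein-coding gene or the 1000 bp either side of it. Of 2825 such genes, 1554 had peaks in both libraries, 93 in old TSA only (3.29%) and 38 in young vehicle only (1.35%), and 1140 had none. Centred tags were above 0 for 756 genes (48.6%) and below 0 for 798 (51.4%), with a median of -0.01. They were at least 2-fold higher in old TSA for 55 genes (3.54%) and at least 2-fold lower for 26 (1.67%). Against the same young vehicle library, old vehicle had 96 genes at least 2-fold higher and 30 lower of 1570, and young TSA had 60 and 21 of 1570. A gene's value can include peaks of a neighbour, and fewer cells of a type and less acetylation per cell cannot be told apart in these bulk samples.

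Matrix genes stood slightly lower in old TSA than in young vehicle. Of 21 listed fibrosis and matrix genes in the stretch, 17 had peaks in both libraries, of which 1 was above 0 and 16 below, with a median of -0.27. Col19a1 had a peak in young vehicle only, and Col9a1, Fmod and Itga4 had none. Housekeeping genes gave a median close to this, -0.22, with 2 of 16 above 0 and 14 below, so nothing particular to matrix genes can be read from the direction. Against young vehicle, the matrix median was -0.28 for old vehicle, with 12 of 17 below 0, and -0.27 for young TSA, with 12 of 16 below 0. In the upper 50% of peaks by tags, 4 matrix genes were above 0 and 9 below.

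Among matrix genes with peaks in all 4 libraries, Col3a1 was where old vehicle and young TSA lay farthest from young vehicle. The gene, which encodes type III collagen (chr1:45311538-45349706), held 214 tags in old TSA and 272 in young vehicle, with 4 peaks in each. Old vehicle held 40 and young TSA 49. The centred ratio to young vehicle was -0.21 ± 0.13 for old TSA, -3.11 for old vehicle and -2.87 for young TSA. Old TSA and young vehicle thus lay close together at this gene, and the other 2 libraries were far lower. H3K27ac at Col3a1 had 1897 tags in old TSA and 3027 in young vehicle, a centred ratio of -0.58.

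Col5a2, a type V collagen chain, held 235 tags in old TSA and 371 in young vehicle (-0.52 ± 0.12), with 192 in old vehicle and 198 in young TSA. Fap, a serine protease of activated fibroblasts, held 151 tags in old TSA and 226 in young vehicle (-0.44 ± 0.15), with 79 in old vehicle and 150 in young TSA. Tnfaip6, which encodes a hyaluronan-binding protein of inflammation, held 88 tags in old TSA and 248 in young vehicle (-1.36 ± 0.18), with 63 in old vehicle and no peak in young TSA. At Col5a2 and Tnfaip6 old TSA lay between young vehicle and the other libraries, and at Fap it was level with young TSA in tags, though not after centring (-0.44 for old TSA, -0.99 for young TSA).

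Other genes of the list did not follow this order. Thbs1, the gene of thrombospondin 1, an activator of TGF-beta, held 132 tags in old TSA and 304 in young vehicle (-1.07 ± 0.15), with 270 in old vehicle and 182 in young TSA. Fbn1, which encodes fibrillin-1, held 365 in old TSA and 571 in young vehicle (-0.51 ± 0.10), with 764 in old vehicle and 754 in young TSA. At Fbn1 old TSA was the lowest of the 4, while at Thbs1 it was lowest in tags and young TSA after centring (-1.07 for old TSA, -1.13 for young TSA). Mfap1a, a splicing factor gene named for microfibrils, held 85 tags in old TSA and 203 in young vehicle (-1.12 ± 0.19). Tns1, which encodes the focal adhesion protein tensin 1, was the member above 0, with 1598 tags in old TSA and 1215 in young vehicle (0.53 ± 0.05). Old vehicle held 3831 tags there and young TSA 3104, so old TSA was the nearest of the 3 to young vehicle. Lamc1, a laminin chain gene, held 820 tags in old TSA and 1032 in young vehicle (-0.19 ± 0.07). Col5a1 held 595 and 787 (-0.27 ± 0.08), and Spred1, an inhibitor of Ras signalling, 698 and 783 (-0.03 ± 0.08). Mfap1a and Spred1 are counted among the 16 members below 0, although neither is a matrix gene.

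Of the 5 FAP identity genes in the stretch, 4 had peaks in both libraries, 3 above 0 and 1 below, and Dpp4 had none. Gsn held 520 tags in old TSA and 193 in young vehicle, a centred ratio of 1.57 ± 0.12 or 2.96-fold, with 1401 in old vehicle and 485 in young TSA. Twist2, a transcription factor of mesenchyme, held 172 and 126 (0.59 ± 0.17), with 369 in old vehicle and 349 in young TSA. In both genes old TSA was above young vehicle and below old vehicle. Prrx1 held 541 tags in old TSA and 621 in young vehicle (-0.06 ± 0.08), although in 1 peak against 4. Cd34, a surface antigen of progenitors, held 482 and 462 (0.20 ± 0.09), with 309 in old vehicle and 437 in young TSA. These peaks at Twist2, Cd34 and Gsn touched a gene end in both libraries, and that at Prrx1 lay inside the gene.

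**Figure D4:**
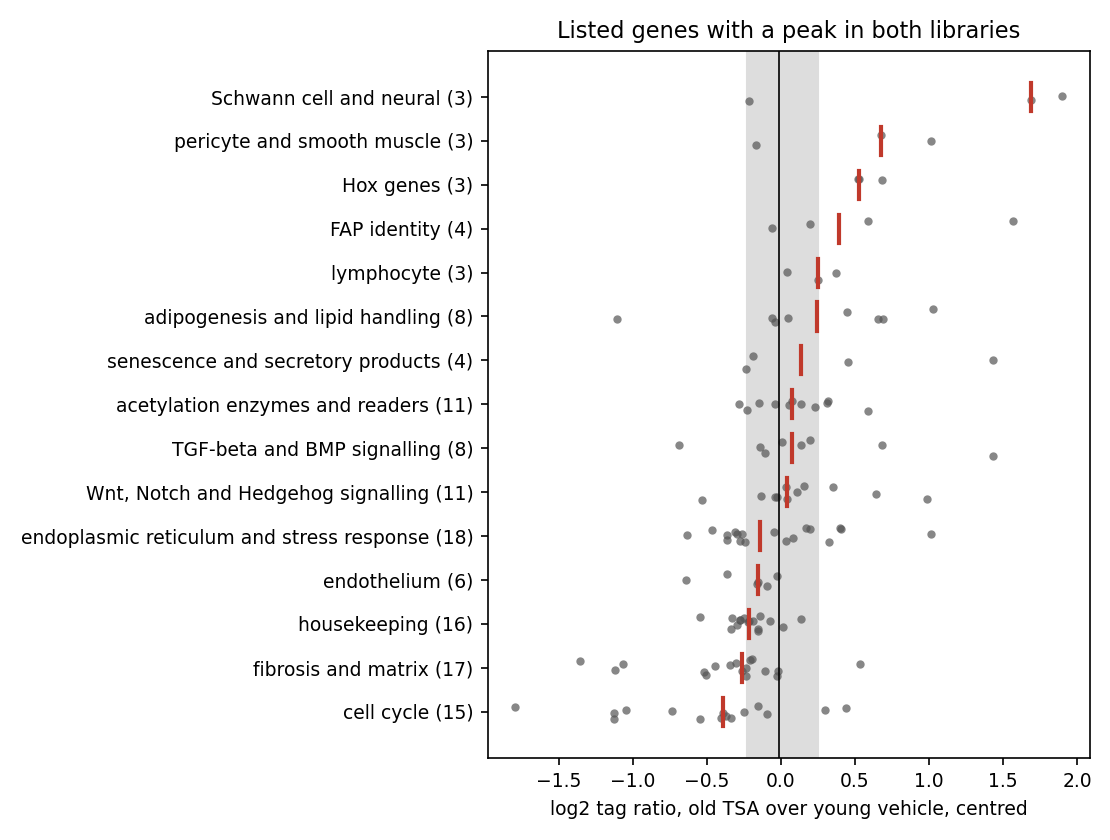
Each point is a listed gene with peaks in both libraries, placed by its centred log2 tag ratio of old TSA over young vehicle (x axis), with the list's median as a red bar and the number of genes in brackets. The black line and the grey band are the median and the interquartile range of all 1554 genes, and the cell cycle list has the lowest median, -0.39.

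Cell cycle genes had the lowest median of any list with 3 or more genes, -0.39. The direction rests on weaker peaks, since in the upper 50% of peaks by tags 3 genes were above 0 and 1 below, with a median of 0.39. Of 18 in the stretch, 15 had peaks in both libraries, with 2 above 0 and 13 below, 4 of them at least 2-fold lower, and Kif14, a mitotic kinesin gene, had 57 tags in young vehicle and no peak in old TSA. E2f1, the transcription factor that turns on S-phase genes, held 131 tags in old TSA and 315 in young vehicle (-1.13 ± 0.15), with 279 in old vehicle and 473 in young TSA. Ube2c, which encodes the ubiquitin-conjugating enzyme of the anaphase-promoting complex, held 33 and 126 (-1.79 ± 0.28), with 129 in old vehicle and 135 in young TSA. Old TSA was the lowest of the 4 libraries at both. Aspm, a spindle pole gene, held 72 and 164 (-1.05 ± 0.20), and Nuf2, a kinetochore gene, 45 and 108 (-1.12 ± 0.26). The replication clamp gene Pcna held 175 and 255 (-0.41 ± 0.14), with 159 in old vehicle. Ccnt2 held 332 and 473 (-0.37 ± 0.10), while Rbl1, a retinoblastoma family gene, held 347 and 310 (0.30 ± 0.11). H3K27ac was lower in old TSA at all 10 listed genes with peaks in both libraries, median -0.37, where 58.6% of 1502 genes overall were lower. Housekeeping genes were also lower at 14 of 16 in each mark, with medians of -0.22, so the direction is not particular to cell cycle genes. Set against young vehicle, the H3K9/14ac median of the cell cycle list was -0.22 for old vehicle and 0.11 for young TSA.

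Genes of Wnt, Notch and Hedgehog signalling were close to young vehicle as a list in old TSA. Of 14 genes, 11 had peaks in both libraries, 7 above 0 and 4 below, with a median of 0.04. The median against young vehicle was 0.61 for old vehicle and 0.46 for young TSA. Notch1, a Notch receptor, held 379 tags in old TSA and 424 in young vehicle (-0.02 ± 0.10), with 841 in old vehicle and 1451 in young TSA. Jag1, a Notch ligand, held 711 and 857 (-0.13 ± 0.07), and Fzd7, a Wnt receptor, 607 and 524 (0.35 ± 0.09). Dll4, another Notch ligand, held 343 and 367 (0.04 ± 0.11). Gli2, a transcription factor of Hedgehog signalling, held 277 and 154 (0.99 ± 0.15), with 783 in old vehicle and 619 in young TSA. Old TSA thus had the tags nearest to young vehicle at Notch1 and Gli2. The ligand genes Wnt10a and Ihh had small peaks in old TSA only, of 28 and 23 tags.

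TGF-beta and BMP signalling genes spread to both sides, with 8 of 12 marked in both libraries, 5 above 0 and 3 below, and a median of 0.07. Bmp2, the gene of a bone morphogenetic protein, held 317 tags in old TSA and 129 in young vehicle (1.44 ± 0.15), with 412 in old vehicle and 343 in young TSA. After centring on young vehicle, Bmp2 was at 1.33 in old vehicle and 1.02 in young TSA. Id1, a target of BMP signals, held 288 and 510 (-0.69 ± 0.11), with 417 in old vehicle and 446 in young TSA. Centred likewise, Id1 was at -0.64 in old vehicle and -0.59 in young TSA. The ligand and its target thus differed from young vehicle in opposite directions in old TSA, and also in old vehicle and young TSA. With a gene flank of 10000 bp, the old TSA value of Id1 shrank to -0.17. The receptor genes Bmpr2 and Acvr2a held 646 against 706 tags (0.01 ± 0.08) and 722 against 875 (-0.14 ± 0.07). Tgfb2 held 471 in old TSA and 559 in young vehicle, and the receptor gene Acvr1c held 50 tags in old TSA only.

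Adipogenesis and lipid genes had a median of 0.25, with 5 of 8 above 0 and 3 below. Rxra, the retinoid X receptor that partners PPAR gamma, held 970 tags in old TSA and 679 in young vehicle (0.65 ± 0.07), with 3105 in old vehicle and 2085 in young TSA. Nr1h3 held 575 and 310 (1.03 ± 0.10), a value that includes the old TSA only region shared with Madd. Irs1, which relays insulin signals, held 989 and 798 (0.45 ± 0.07). Lpin3, a phosphatidate phosphatase gene, went the other way with 136 and 323 (-1.11 ± 0.15), and Insig2, which restrains sterol synthesis, held 385 and 442 (-0.06 ± 0.10).

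Of 9 senescence and secretory genes, 4 had peaks in both libraries, 2 above 0 and 2 below. Serpine2, a protease inhibitor gene, held 248 tags in old TSA and 199 in young vehicle (0.46 ± 0.14). Igfbp5, a binding protein of insulin-like growth factors, held 48 tags in old TSA and had no peak in young vehicle, with 164 in old vehicle and 270 in young TSA. Ptgs2, the inducible cyclooxygenase gene, held 126 and 163 (-0.23 ± 0.17), and Glb1l 462 and 580 (-0.19 ± 0.09). Bmp2 is counted in this list too. Il1a, Il1b, Mmp9 and Igfbp2 had no peak in either library.

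All 18 genes of the endoplasmic reticulum and stress list had peaks in both libraries, 8 above 0 and 10 below, with a median of -0.14. Hspa5 held 407 tags in old TSA and 695 in young vehicle (-0.63 ± 0.09), with 563 in old vehicle and 520 in young TSA. After centring on young vehicle, Hspa5 was at -0.65 in old vehicle and -0.81 in young TSA. Ppp1r15b, a subunit of the phosphatase that ends the stress response, held 1002 and 1321 (-0.26 ± 0.06), and Nfe2l2, the regulator of antioxidant genes, 604 and 650 (0.03 ± 0.08). Trib3, a pseudokinase gene of the same response, held 180 and 98 (1.02 ± 0.18), and Hspd1 and Hspe1 share their peaks, with 442 and 626 tags. Of the 13 acetylation enzymes and readers, 11 had peaks in both libraries, 7 above 0 and 4 below, with a median of 0.07. Baz2b, a bromodomain gene, held 1148 and 1015 (0.32 ± 0.06), and the coactivator gene Ncoa2 617 and 579 (0.23 ± 0.08). Sp3, which encodes a transcription factor and no acetylation enzyme or reader, is counted among the 7 above 0. It held 662 and 587 tags (0.31 ± 0.08). Ncoa3 held 492 in each library (0.14 ± 0.09), and Sp100 59 tags in young vehicle only. Among housekeeping genes, the ribosomal protein gene Rpl7 held 740 and 857 tags (-0.07 ± 0.07), Rpl7a 501 and 627, and Ndufs1 and Eef1b2, which share a peak, 565 and 754.

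The Hoxd cluster carries positional identity of limb cells. Its 3 genes with peaks in both libraries were all above 0, Hoxd8 with 345 tags in old TSA and 236 in young vehicle (0.69 ± 0.12), Hoxd3 with 278 and 212 (0.53 ± 0.13) and Hoxd9 with 265 and 203 (0.52 ± 0.13). Hoxd1 had 56 tags in old TSA only, and 6 of the 10 listed genes of the cluster had no peak.

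Markers of other cell types were examined because the sorted cells could hold some. Endothelial genes carried the most tags of these, with peaks at 6 of 9 in old TSA and 7 of 9 in young vehicle, and summed tags of 2488 and 3332. All 6 with peaks in both were below 0, median -0.16, and H3K27ac was lower at 6 of 6, median -0.37. Housekeeping genes leaned the same way, with 14 of 16 below 0 in each mark and medians of -0.22. The direction is thus not particular to endothelial genes, though their H3K27ac median was lower than that of housekeeping genes. Eng, a TGF-beta co-receptor of endothelium, held 417 tags in old TSA and 716 in young vehicle (-0.64 ± 0.09), with 737 in old vehicle and 1142 in young TSA. After centring on young vehicle, Eng was at -0.30 in old vehicle and 0.28 in young TSA. Egfl7 held 705 and 863 (-0.15 ± 0.07), Thbd 443 and 520 (-0.09 ± 0.09), Cd93 385 and 431 (-0.02 ± 0.10), and Nostrin 72 in young vehicle only. Sele and Selp had no peak. The part of endothelial cells in the Aplnr region was not tested.

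Muscle genes were marked at 1 of 18 in old TSA (Casq1, 33 tags) and 1 of 18 in young vehicle (Tnni1, 58 tags), with none at Myog, Chrna1, Ttn or Neb. Macrophage genes were marked at 3 of 14 in old TSA and 2 of 14 in young vehicle, with summed tags of 680 and 495. Spi1, the myeloid transcription factor, held 54 tags in old TSA only, Sirpa held 465 and 357 and Slc11a1 161 and 138, while Ptprc had no peak. Lymphocyte genes were marked at 3 of 13 and 4 of 13, with sums of 692 and 715, most of them at Cd247 (405 and 374), next to Cxcr4 (161 and 137) and Rag2 (126 and 135). Icos held 69 tags in young vehicle only, and Cd28, Ctla4 and Rag1 had no peak.

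Pericyte and smooth muscle genes had peaks at 3 of 6 in each library, with summed tags of 275 and 207. Myl9, a myosin light chain gene, held 121 and 66 (1.01 ± 0.22) and Itga8 64 and 79. Of 14 Schwann cell and neural genes, 3 had peaks in both libraries. Grin1, a glutamate receptor subunit gene, held 112 and 33 tags (1.90 ± 0.29) and Rims1, which encodes a presynaptic protein, 132 and 45 (1.69 ± 0.25). Lhx2 held 67 tags in old TSA only and Scn2a 81 in young vehicle only.

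Start sites brought a further difference. Of 4539 RefSeq start sites of 3712 genes in the stretch, 347 lay under a peak in old TSA only, 144 in young vehicle only, 1088 in both and 2960 in neither. The promoters, counted from 250 bases before the start to 50 after, held a median of 24 CG in the old TSA only class. The median was 17.5 in young vehicle only, 22 in both and 4 in neither, and 7 over all promoters. Base composition followed, with a median GC content of 66.3% in old TSA only, 57.7% in young vehicle only and 61.7% in both. Of the old TSA only start sites, 279 (80.4%) lay in shared regions, where the old TSA peak reached over the start and the young vehicle peak stopped short, as at Src. Of the young vehicle only start sites, 115 (79.9%) did so the other way. Single start sites did not follow the class medians closely. In the 250 bases before the start, old TSA only start sites at the named regions held 40 CG at Src, 37 and 23 at Cacnb4, 31 at Ebf4, 29 at Rtn4rl2 and 21 at Lzts3. Others of that class held few, with 9 at Sh2d3c, 6 at Zmynd8 and Tmcc2, 5 at Madd and 4 at Nr6a1. The young vehicle only start sites there were those of Rgs16 and Pla2g4a, with 17 and 3, while Gsn, Dpt and Zfp442 had a peak over the start in both libraries. GC content of the sequenced fragments was not measured here, and its part in this difference was not tested.

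**Figure D5:**
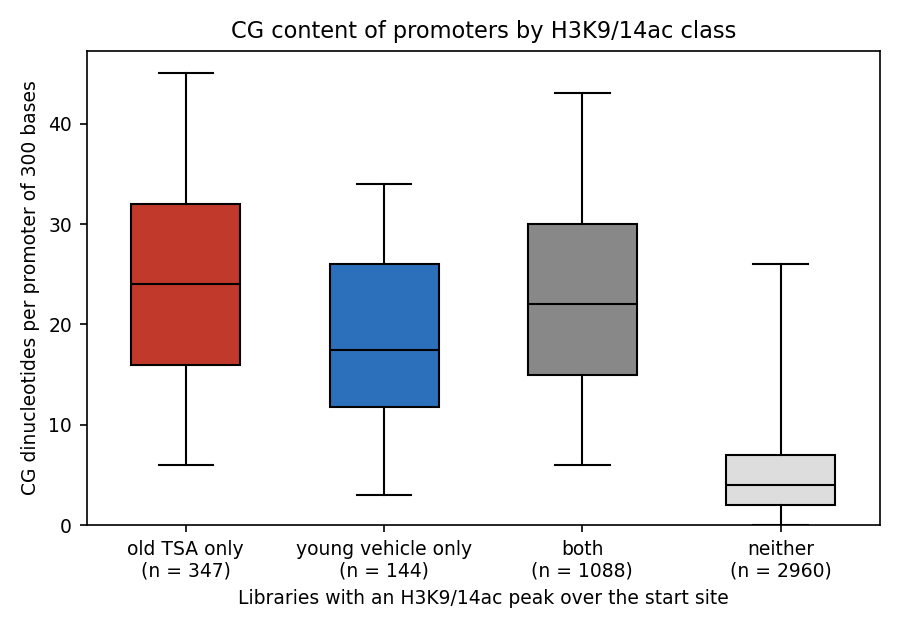
CG dinucleotides per 300-base promoter (y axis) by the libraries with an H3K9/14ac peak over the start site. Boxes give the median and the interquartile range, whiskers the middle 90% of promoters, and the medians are 24 in old TSA only, 17.5 in young vehicle only, 22 in both and 4 in neither.

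Set against start sites of young vehicle only, a higher CG content was not limited to those gained in old TSA. Start sites under a peak in old vehicle and not in young vehicle numbered 228, with a median of 19.5 CG, against 15 in 99 of young vehicle only. For young TSA they numbered 365 with a median of 21 CG, against 7 in 53 of young vehicle only. Start sites covered in both libraries of the pair had a median of 21 CG for old vehicle and 22 for young TSA. Gained start sites were thus above that class only in old TSA, with 24 against 22. All 3 comparisons use the same young vehicle library.

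Short motifs were searched on both strands of these promoters. The GC box, GGGCGG, which Sp1 family factors bind, occurred in 78.1% of old TSA only promoters, 63.2% of young vehicle only, 62.2% of both and 34.9% of all. The CCAAT box, CCAAT, occurred in 28.5% of old TSA only, 48.6% of young vehicle only, 33.5% of both and 35.1% of all. TATAAA occurred in 8.07%, 2.08%, 3.86% and 14.0% in the same order of classes. The AP-1 motif TGACTCA was in 4.32%, 2.08%, 3.49% and 5.57%, the CRE motif TGACGTCA in 3.17%, 2.08%, 2.67% and 1.54%, and the E2F motif TTCCCGCC in 4.61%, 5.56%, 3.31% and 1.92%. The GC box and the E2F motif can overlap each other. In young vehicle only, the shares of TATAAA, AP-1 and CRE each rest on 3 of 144 promoters. The classes also differ in GC content, and its part in the motif shares was not tested.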

How the data were processed

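ChIP-seq peak lists of H3K9/14ac from the old TSA and young vehicle libraries were compared, beside those of old vehicle and young TSA and the H3K27ac lists of old TSA and young vehicle. Per the file headers, HOMER's differential peak program wrote each list with a tag directory set against itself, and the deposited Total Tags are whole-number counts per peak, not normalized and not pooled. The deposited fold of 1 and score of 0 in every peak carry no information and were not used. The submitters' processing notes name Bowtie 0.12.7, HOMER, MACS2 and build GRCm38, and assign none of them to a step. Sequencing depth is unknown beyond the tags in peaks, and the 4 input samples were not used. All lists end in an incomplete line, which was dropped.

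Peaks that overlapped by 1 bp or more were joined into regions, and the log2 ratio of their counts, old TSA over young vehicle, was centred on the median over shared regions. Errors printed with ratios come from counting alone (square root of the summed inverse counts), and intervals of shares are exact Clopper-Pearson 95% intervals, covering counting error only. With 1 library per group no test between groups was made. Genes and start sites came from RefSeq tables of GRCm38.p6, the gene table having neither strand nor exons. H3K27ac ratios were centred in the same way. Python 3.11.15, pandas 2.3.3, NumPy 2.4.6, SciPy 1.17.1 and matplotlib 3.10.9 were used, and the joining of peaks was tested on simulated data. The members and the 17 gene lists were chosen with earlier results of these data known. Named by rule were the 8 highest and 8 lowest shared regions with at least 100 tags touching exactly 1 gene, the 6 regions of each library only with the most tags at a gene, and from each list the 4 genes with the most tags plus those marked in 1 library only. Other genes named were chosen after their values were seen. Alternatives changed the overlap, the fold, the gene flank, the gene end window, the centring, the lowest tags and the list length.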

Additional observations from a re-analysis of the deposited data

How the results depend on the processing

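Of 220 alternative values of summary results, 186 stayed within the spread set for them, and of 267 alternative values of 73 named genes 245 did and 22 moved. Named-gene values take all peaks of a gene, not only the region named above. The sign changed in 13 of these values, 9 of them within that spread. The other 4 were Sh2d3c, at 0.24 against -0.81 with a gene flank of 10000 bp, and in the upper 50% of peaks by tags Casp8 (0.17 against -0.27), Prrx1 (0.33 against -0.06) and Tgfb2 (0.15 against -0.11). The cause was not tested. With tags per bp of peak, 1 shared region was at least 2-fold higher in old TSA and 0 lower, which cannot separate peak width from signal. With a fold of 1.5, shared regions higher and lower numbered 233 and 85, and genes 173 and 78. In the upper 50% of peaks by tags, the numbers were 37 and 5 regions and 17 genes lower, 90.1% of old TSA peaks overlapped young vehicle and 96.2% of shared regions lay within 2-fold. There the matrix list had 4 genes higher and 9 lower, and the cell cycle list had 1 lower and a median of 0.39, the opposite direction to all peaks, with 3 higher, so that only 4 of its genes were left to compare. The Wnt, Notch and Hedgehog list then had 4 higher, the stress list 5 higher, the FAP list 0 lower, and the adipogenesis median was 0.61. With lists of equal length by tags, 80.4% of old TSA peaks and 89.4% of young vehicle peaks overlapped, and with an overlap of at least 50% of the shorter peak 81.1% and 84.0%. Within 2500 bp, a gene end was touched by 46.0% of old TSA only, 43.2% of young vehicle only and 78.4% of shared regions, so the first 2 classes hardly differed. With a gene flank of 10000 bp, 5 Hox genes, 4 cell cycle genes and 1 endothelial gene were higher, 2 signalling genes were lower and the neural median was 0.92. Centring on summed tags left 1 housekeeping gene higher and put 1 lymphocyte gene lower. Regions of 1 peak in each library, chosen after seeing the data, were within 2-fold in 94.1%. No paired analysis was possible because each group has 1 library and no test was made. Depth limits the weakest regions most, where a peak of few tags may be called in one library and missed in the other.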
